A study of Mus musculus with 5 samples.

Results

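The miR-30 family was examined in bone marrow-derived dendritic cells (BMDCs) given flagellin or medium alone. Its members were taken by name: every mature mouse miRNA on the array called miR-30a, b, c, d or e, from either arm of its hairpin, which gave 11 of the 1122 mouse miRNAs carried by the array (5 from the 5p arm and 6 from the 3p arm). Of these, 9 were detected on all 5 arrays (mmu-miR-30a-5p, mmu-miR-30b-5p, mmu-miR-30c-5p, mmu-miR-30d-5p and mmu-miR-30e-5p, and the 3p strands of b, c-1, d and e), and miR-30a-3p and miR-30c-2-3p were detected on none. No detected member passed the test of flagellin against medium. The 5 members of the 5p arm lay slightly higher with flagellin, by 1.02- to 1.13-fold, where 51.8% of the 307 miRNAs tested lay higher. For miR-30b-5p and miR-30c-5p the direction turned when some arrays were left out. miR-30d-5p, with the smallest p of the 9 detected members, had every flagellin array above both medium arrays, as did 11.4% of the 307 miRNAs tested.

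The BMDCs came from bone marrow of 6-week-old C3H/HeJ mice, a strain with a defective Tlr4 gene, grown with rmGM-CSF and rmIL-4 and sorted for CD11c+ on an auto-MACS. The flagellin group (3 arrays) received flagellin (FliC) of Salmonella typhimurium, the ligand of TLR5, at 100 ng/mL for 24 h, and the medium group (2 arrays) was kept 24 h without it. All 5 arrays were of 1 colour, on 1 slide and from 1 scan. The study states that its experiments were repeated, but not whether the arrays of a group came from separate cultures or animals, so p-values measure only the spread between these samples, which may be technical. The flagellin arrays lay in columns 2 and 3 of the slide and both medium arrays in column 4, so that column and treatment cannot be told apart.

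A miRNA hairpin yields a 5p and a 3p strand, one of which is usually loaded onto an Argonaute protein and kept while the other is mostly degraded. The loaded strand finds target mRNAs mainly through its seed, bases 2 to 8 from the 5′ end. The miR-30 family is a conserved set of abundant miRNAs in which the 5p strands share a single seed, so that their predicted targets overlap widely. Published targets include the autophagy gene Becn1 (miR-30a), the Notch ligand gene Dll4 (miR-30b), the matrix protein gene Ccn2 (miR-30c) and the glycosylation enzyme gene Galnt7 (miR-30d). Its 6 hairpins lie as 3 pairs of neighbouring genes.

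RefSeq (GRCm38.p6) gave mature sequences for 7 of the 11 members. They are shown with the seed in capitals, because the seed divides the arms into groups that the names do not show.
miR-30a-5p: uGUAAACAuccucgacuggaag
miR-30c-5p: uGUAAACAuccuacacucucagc
miR-30e-5p: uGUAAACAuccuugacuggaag
miR-30a-3p: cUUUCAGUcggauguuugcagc
miR-30e-3p: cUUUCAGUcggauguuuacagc
miR-30c-1-3p: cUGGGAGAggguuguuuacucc
miR-30c-2-3p: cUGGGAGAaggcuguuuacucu
The 3 strands of the 5p arm shared the seed GUAAACA, while the 3p strands fell into a group with UUUCAGU (miR-30a-3p and miR-30e-3p) and a group with UGGGAGA (miR-30c-1-3p and miR-30c-2-3p). Of the 881 miRNAs on the array with a mature sequence in that table, 1 other carried GUAAACA, miR-384-5p, and it was not among those detected on all arrays, while no other carried the 2 seeds of the 3p arm.

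The hairpins of Mir30e and Mir30c-1 are shown as an example of a neighbouring pair, with both mature arms in capitals, since these are the 2 hairpins with a RefSeq sequence whose arms were both detected.
Mir30e: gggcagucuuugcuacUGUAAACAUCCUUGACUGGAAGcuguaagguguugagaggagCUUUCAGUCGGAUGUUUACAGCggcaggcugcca
Mir30c-1: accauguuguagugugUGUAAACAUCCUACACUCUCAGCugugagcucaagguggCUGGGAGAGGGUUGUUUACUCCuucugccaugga
In the mm9 positions that the array files give, the probes of miR-30a lay at chr1:23279118-23279175 and those of miR-30c-2 at chr1:23298558-23298614, on the plus strand, with 19.4 kb between the 5p probes. The probes of miR-30b lay at chr15:68169002-68169056 and those of miR-30d at chr15:68172789-68172842, on the minus strand, with 3.77 kb between the 5p probes. The probes of miR-30c-1 lay at chr4:120442160-120442215 and those of miR-30e at chr4:120445232-120445290, on the minus strand, with 3.06 kb between the 5p probes. For the 4 hairpins on the minus strand the files place the 5p probe below the 3p probe, against the order that the strand gives, so these positions locate a hairpin but not the exact bases. In RefSeq, Mir30e lies inside the protein gene Nfyc, which encodes a subunit of the transcription factor NF-Y. Mir30a and Mir30b lie inside no protein gene, with Ppp1r14bl and Ogfrl1 on either side of Mir30a and Zfat and Khdrbs3 on either side of Mir30b. The mature miR-30c-5p is the same from Mir30c-1 and Mir30c-2, so its signal cannot be divided between them.

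An Agilent miRNA probe is complementary to the 3′ part of its miRNA, and each miRNA has 2 to 4 probes of increasing length. The longest probe of each 5p member is printed 5′ to 3′ as in the deposited files. The base that it has beyond the next shorter probe is in capitals, because the signals of those probes are compared below.
miR-30a-5p: cttccagtcgaggatgT
miR-30e-5p: cttccagtcaaggatgT
miR-30d-5p: cttccagtcggggA
miR-30b-5p: agctgagtgtaggatgT
miR-30c-5p: gctgagagtgtaggatgT
Counted from 1 at the probe's 5′ end, the probe of miR-30a-5p differed from that of miR-30e-5p by G10A alone over 17 bases, and from that of miR-30d-5p by A11G alone over 14 bases. The probes of miR-30b-5p and miR-30c-5p shared a run of 13 bases. The longest probe of miR-30a-5p paired with bases 6 to 22 of its miRNA and that of miR-30c-5p with bases 6 to 23, which takes in only the end of the seed. How far a probe also binds the other family members was not tested.

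The level of a member was measured as its total gene signal, the sum of the signals of those of its probes that exceeded 3 times their own error, which Feature Extraction, the scanner's software, set to 0.1 where no probe did so. It is an intensity with no unit, and values of different miRNAs also reflect how well their probes bind, so that an order of signals is not an order of amounts. The 11 members together held 0.466% to 0.546% of the summed signal of detected miRNAs on an array. All 5 members of the 5p arm exceeded every 3p member on each array: the lowest 5p signal was 37.7 and the highest 3p signal was 23.8.

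**Figure D1:**
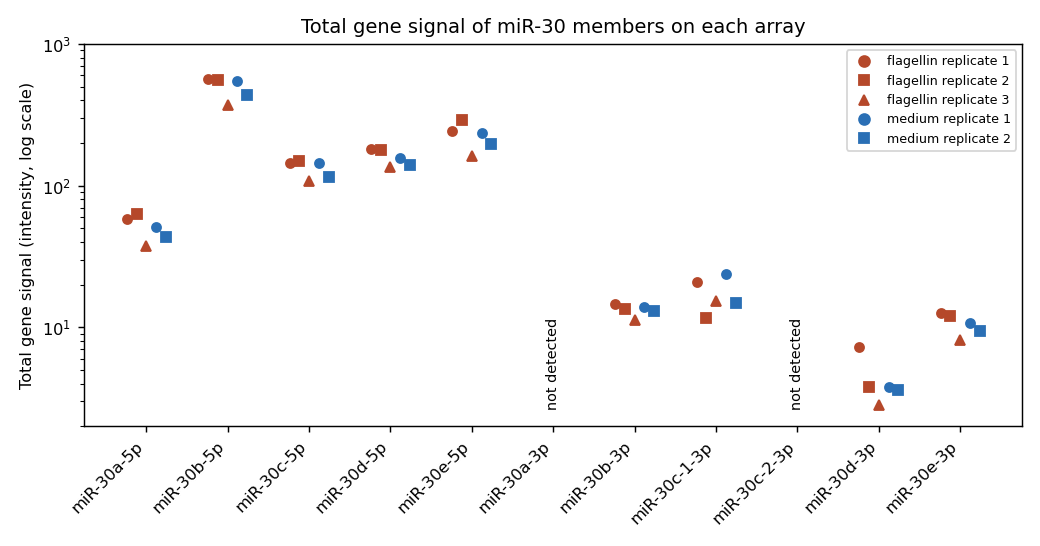
Total gene signal (intensity, log scale) of the 11 miR-30 members, 1 point per array, with flagellin arrays in red and medium arrays in blue. The 5p members lie between 37.7 and 563 and the detected 3p members between 2.85 and 23.8, and for every member detected the groups overlap in unscaled signal.

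miR-30b-5p gave the highest signal of the family, 562.8, 558.6 and 368.1 on flagellin arrays 1, 2 and 3, against 544.2 and 434.5 on medium arrays 1 and 2. Values are given in this order throughout. It stood between rank 54 and rank 60 of the 277 miRNAs detected on every array. miR-30e-5p followed, at 244.6, 289.2 and 162.0 with flagellin against 236.1 and 196.0 in medium. Flagellin array 3 was the lowest and flagellin array 2 the highest for miR-30e-5p, so that the flagellin arrays enclosed both medium arrays.

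miR-30d-5p gave 180.3, 178.6 and 134.7 with flagellin against 156.4 and 139.1 with medium. miR-30c-5p gave 144.9, 149.1 and 107.4 with flagellin against 143.8 and 116.0 with medium. miR-30a-5p was the lowest of the 5p arm, with 58.3, 63.1 and 37.7 against 51.0 and 43.5. The order b, e, d, c, a held on all 5 arrays, although the ranges of neighbours overlapped between arrays for every pair except miR-30b-5p with miR-30e-5p and miR-30c-5p with miR-30a-5p. Flagellin array 3 had the lowest signal of all 5 members, and it also had the lowest 75th percentile over the miRNAs detected on every array, 210.6 against 246.1 to 293 on the others. Signals were therefore divided by this percentile before the groups were compared, and the resulting values are called scaled log2 levels.

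After scaling, the level of miR-30d-5p was −0.64, −0.71 and −0.65 in the flagellin group against −0.85 and −0.82 in the medium group. Every flagellin array of miR-30d-5p lay above both medium arrays, which held for 11.4% of the 307 miRNAs tested. The scaled log2 difference was 0.17 ± 0.070 (SE, n = 3 and 2; 95% confidence interval −0.015 to 0.36), a fold of 1.13. Its p in limma was 0.0637, or 0.859 after Benjamini-Hochberg adjustment over the 307 miRNAs tested, among which it ranked 20. Under the 24 alternatives in processing, testing or arrays used, the difference lay between 0.13 and 0.35. Several of them, such as the methods' t-test in place of limma, cannot change the difference. The 22 with a test gave an adjusted p of 0.224 to 1.

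miR-30a-5p was −2.27, −2.21 and −2.48 with flagellin against −2.47 and −2.5 in medium on the scaled log2 scale. Flagellin arrays 1 and 2 lay above the medium arrays and flagellin array 3 lay between them. Its difference was 0.16 ± 0.11 (SE; 95% confidence interval −0.12 to 0.45) with a limma adjusted p = 0.859. miR-30e-5p was −0.20, −0.019 and −0.38 with flagellin against −0.26 and −0.33 in medium, a difference of 0.093 ± 0.13 (SE; 95% confidence interval −0.25 to 0.43) with a limma adjusted p = 0.885. The miR-30e-5p difference came to 0.0031 without flagellin array 2. The remaining pair of the 5p arm was closest to 0.

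miR-30c-5p, at −0.96, −0.97 and −0.97 with flagellin against −0.97 and −1.08 in medium, differed by 0.061 ± 0.074 (SE; 95% confidence interval −0.13 to 0.26). The miR-30c-5p difference was 0.0046 without medium array 2 and 0.12 without medium array 1. miR-30b-5p, at 1.0, 0.93 and 0.80 against 0.95 and 0.82, differed by 0.029 ± 0.097 (SE; 95% confidence interval −0.23 to 0.28). The limma adjusted p was 0.878 for miR-30c-5p and 0.953 for miR-30b-5p. With this scaling, a change of 1.5-fold was outside the 95% confidence interval of each of the 5 members of the 5p arm. These intervals rest on a spread between samples that may be technical. With the percentile taken over all mouse miRNAs instead, the miR-30a-5p difference was 0.34.

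Of the 9 detected members, 0 had a limma adjusted p under 0.05, against 0.651% of the 307 miRNAs tested, and 0 had an unadjusted p under 0.05, against 5.86% of all tested in either direction. In the alternative fits 0 or 1 member had an unadjusted p under 0.05, while 7 to 71 of all miRNAs tested did, the latter without flagellin array 3, where 1 member was among the 71. All flagellin arrays lay above both medium arrays for 2 of the 9 (miR-30d-5p and miR-30e-3p), against 11.4% of all miRNAs tested. All flagellin arrays lay below both medium arrays for 0 of the 9, against 8.79%. The 9 differences had a median of 0.093 on the log2 scale, with 7 above 0 and 2 below, beside a median of 0.0095 over all 307 miRNAs, of which 51.8% lay above 0. When the percentile was taken over all mouse miRNAs, the median of all moved to 0.19 and that of the family to 0.27.

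**Figure D2:**
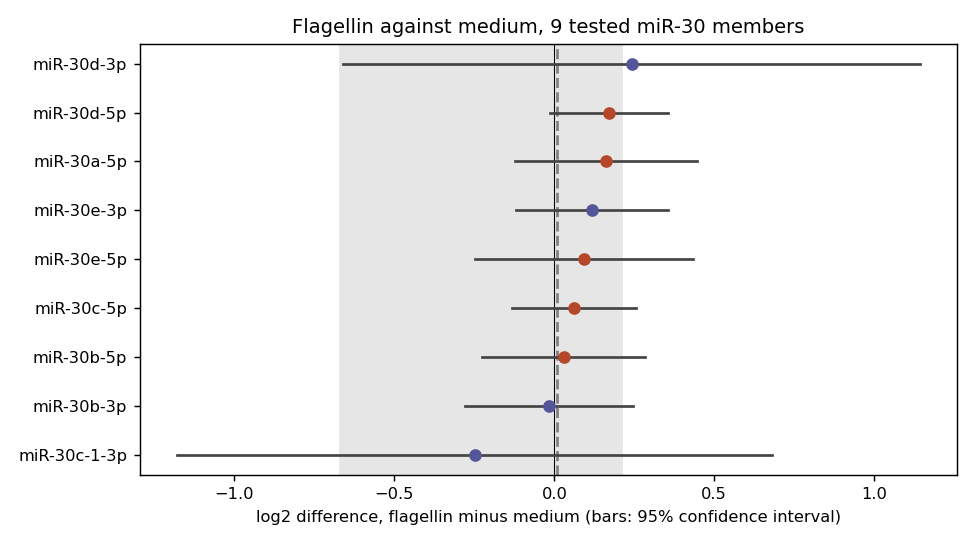
Log2 difference between flagellin and medium (points, 5p members in red and 3p members in blue-grey) with its 95% confidence interval (bars) for the 9 tested members. The grey band spans the 5th to 95th percentile of all 307 miRNAs (−0.67 to 0.21), the dashed line is their median (0.0095), all 9 intervals include 0 and 8 of the 9 points lie in the band.

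The 5p members carry 11 of the family's 29 probes, which allow the same comparison without the sum. All 11 were detected on every array, and each of them was higher with flagellin on average, by 0.018 to 0.24 on the scaled log2 scale. Probes of 1 member read the same RNA and are not replicates. For miR-30d-5p both probes separated the groups, with differences of 0.13 at 13 bases and 0.20 at 14 bases. For miR-30a-5p, miR-30b-5p and miR-30c-5p the groups were apart at 1 probe each (of 16, 16 and 18 bases) and overlapped at the others. For miR-30e-5p they overlapped at both. The shares of all probes on the array that were higher with flagellin, or had the groups apart, were not computed. Of the 307 miRNAs tested, 51.8% had a difference above 0 and 11.4% had all flagellin arrays above both medium arrays. These are shares of miRNAs and not of probes.

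**Figure D3:**
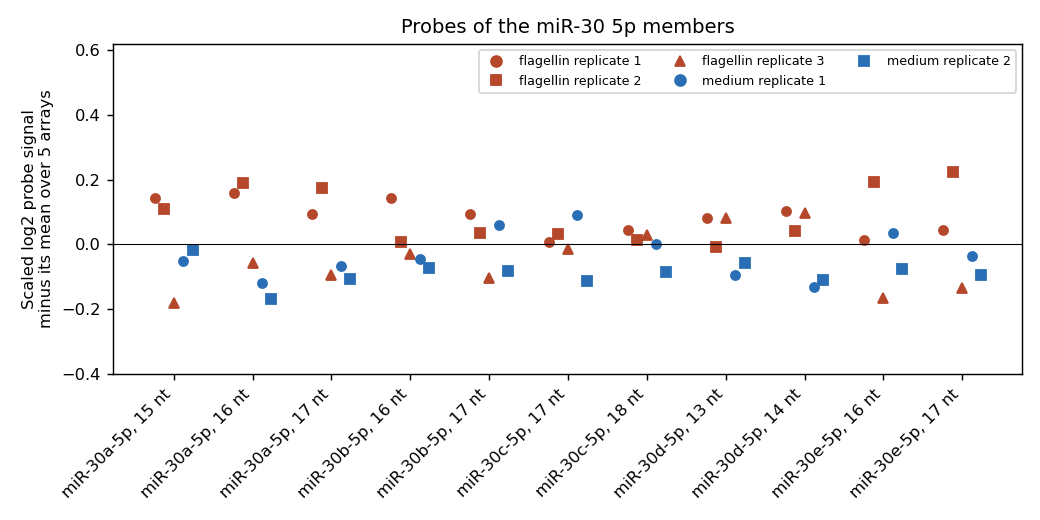
Scaled log2 signal of each probe of the 5p members minus its mean over the 5 arrays, 1 point per array. Both probes of miR-30d-5p have all 3 flagellin arrays (red) above both medium arrays (blue), and both probes of miR-30e-5p have flagellin array 2 (red square) highest and flagellin array 3 (red triangle) lowest.

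The longest probe gave more signal than the next shorter one for every 5p member, and what makes them differ was not tested. For miR-30b-5p the probe of 17 bases gave 6.25 to 7.08 times the signal of that of 16 bases on the same array. The ratio was 3.37 to 3.63 for miR-30e-5p, 3.39 to 3.72 for miR-30c-5p, 2 to 2.18 for miR-30a-5p and 1.32 to 1.41 for miR-30d-5p. The base gained was T in the first 4 and A in miR-30d-5p. In each member these ratios varied less between arrays than they differed from 1.

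The 3p strands gave low signals. miR-30b-3p was 14.64, 13.54 and 11.34 with flagellin against 13.99 and 13.01 in medium, and its scaled log2 difference was −0.017 ± 0.10 (SE), the one nearest to 0 among the 9. miR-30e-3p was 12.53, 12.04 and 8.16 with flagellin against 10.71 and 9.43 in medium. After scaling, miR-30e-3p was −4.49, −4.61 and −4.69 against −4.72 and −4.71, all flagellin arrays above both medium arrays, as for 11.4% of miRNAs tested. Its difference of 0.12 ± 0.090 (SE; 95% confidence interval −0.12 to 0.36) had a limma adjusted p = 0.859. It rested on the probe of 18 bases alone, since the probe of 17 bases passed the detection rule on no array.

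The other 2 detected 3p strands were those in which the number of probes summed changed between arrays, so their probes are printed from shortest to longest, with the part beyond the shortest in capitals. In miR-30d-3p the probe of 18 bases decided the level.
16 bases, miR-30d-3p: gcagcaaacatctgac
17 bases, miR-30d-3p: gcagcaaacatctgacT
18 bases, miR-30d-3p: gcagcaaacatctgacTG
19 bases, miR-30d-3p: gcagcaaacatctgacTGA
16 bases, miR-30c-1-3p: ggagtaaacaaccctc
17 bases, miR-30c-1-3p: ggagtaaacaaccctcT
18 bases, miR-30c-1-3p: ggagtaaacaaccctcTC
19 bases, miR-30c-1-3p: ggagtaaacaaccctcTCC
miR-30d-3p had a total gene signal of 7.22 on flagellin array 1 and of 3.81, 2.85, 3.79 and 3.59 on flagellin arrays 2 and 3 and medium arrays 1 and 2. Flagellin array 1 thus stood apart from the other arrays. On that array the probe of 18 bases had a signal of 2.86 against a limit of 2.58, and it was added to that of 19 bases. On the other 4 arrays the probe of 18 bases had 2.17, 2.06, 2.29 and 1.91 against limits of 2.76, 2.38, 2.31 and 2.45, and it was left out of the sum. The probe of 19 bases alone gave 4.36, 3.81 and 2.85 with flagellin against 3.79 and 3.59 in medium.

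The log2 difference of miR-30d-3p was 0.24 ± 0.34 (SE; 95% confidence interval −0.66 to 1.14; limma adjusted p = 0.885) with the deposited total signals, −0.00083 with the same probes on every array and −0.076 without flagellin array 1. miR-30c-1-3p gave 21.1, 11.6 and 15.4 with flagellin against 23.8 and 14.9 in medium, and flagellin array 2 was the lowest. There the probe of 17 bases, with 2.28 against a limit of 2.78, was left out of the sum, while all 4 probes entered on the other arrays. Its log2 difference was −0.25 ± 0.35 (SE; 95% confidence interval −1.18 to 0.68; limma adjusted p = 0.885), −0.20 with the same probes on every array and 0.051 without flagellin array 2. Leaving out flagellin array 1 thus turned the direction of miR-30d-3p, and leaving out flagellin array 2 that of miR-30c-1-3p. Without medium array 1 the miR-30c-1-3p difference was −0.011.

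**Figure D4:**
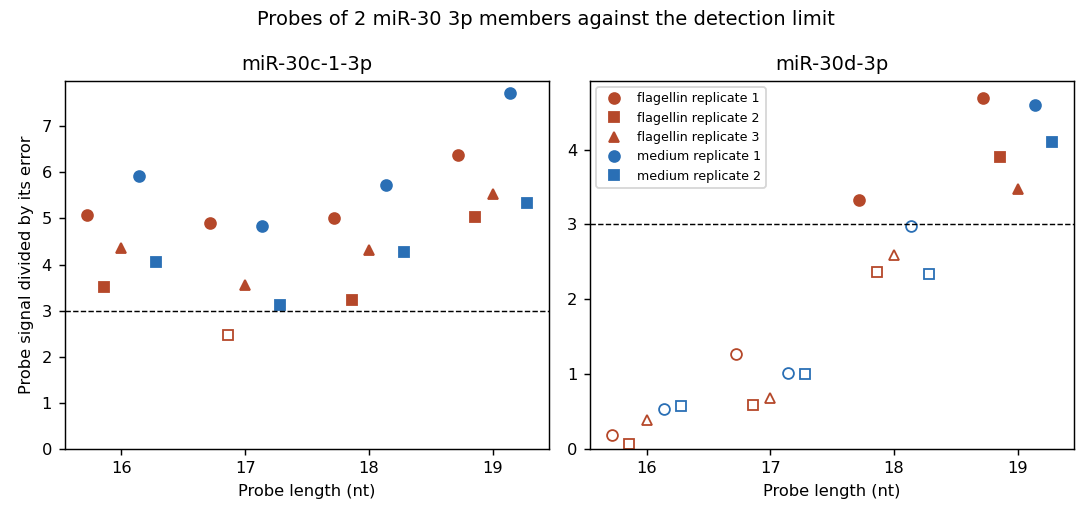
Signal of each probe divided by its error, against probe length in bases, for miR-30c-1-3p and miR-30d-3p on the 5 arrays. Filled symbols passed the limit of 3 errors (dashed line) and open symbols did not: flagellin array 2 fails at 17 bases for miR-30c-1-3p, and for miR-30d-3p flagellin array 1 alone passes at 18 bases.

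miR-30a-3p and miR-30c-2-3p were listed at 0.1 on every array. The probes of miR-30a-3p had signals of at most 1.52 against limits of at least 4.41, and those of miR-30c-2-3p at most 1.33 against limits of at least 4.39. The probe of miR-30a-3p differs from that of miR-30e-3p by C5T alone over 17 bases. At that length miR-30e-3p gave 2.75 to 4.49 and was not detected either, while miR-30a-3p gave 0.394 to 1.52. The array carries no longer probe for miR-30a-3p, and why only miR-30e-3p was detected was not tested. No strand can be called absent at this sensitivity.

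Arm ratios were taken as the log2 ratio of the 5p to the 3p signal on the same array, in which the scaling of the array cancels unless a signal is raised to the common floor of 0.0121 times the percentile. All 9 detected members lay above that floor, although under other scalings miR-30d-3p did not on every array. Of 39 hairpins with both arms detected on all arrays, 4 were of the miR-30 family. For miR-30b it was 5.26, 5.37 and 5.02 with flagellin against 5.28 and 5.06 in medium. For miR-30e it was 4.29, 4.59 and 4.31 against 4.46 and 4.38. In both hairpins the flagellin arrays enclosed the medium arrays.

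For miR-30d the ratio was 4.64, 5.55 and 5.56 with flagellin against 5.37 and 5.28 in medium, with flagellin array 1 lowest. For miR-30c-1 it was 2.78, 3.68 and 2.80 against 2.6 and 2.96, with flagellin array 2 highest. These are the arrays on which the number of 3p probes changed. The signal of miR-30c-5p also comes from Mir30c-2, so its ratio to miR-30c-1-3p is not that of a single hairpin.

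The differences in log2 arm ratio between flagellin and medium were 0.045 ± 0.15 for miR-30b, −0.025 ± 0.14 for miR-30e, −0.071 ± 0.31 for miR-30d and 0.31 ± 0.32 for miR-30c-1 (SE, n = 3 and 2). Their limma adjusted p values lay between 0.802 and 0.957 over the 39 hairpins. Of the 4, 0 passed an adjusted p of 0.05, as did 0% of all 39, and 0 passed an unadjusted p of 0.05, against 5.13% of all. Over all 39 hairpins the differences ran from −0.52 to 0.88 with a median of 0.0067. The difference of miR-30c-1 came to 0.013 without flagellin array 2 and to 0.26 with the same probes on every array. With the same probes, that of miR-30d came to 0.17.

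**Figure D5:**
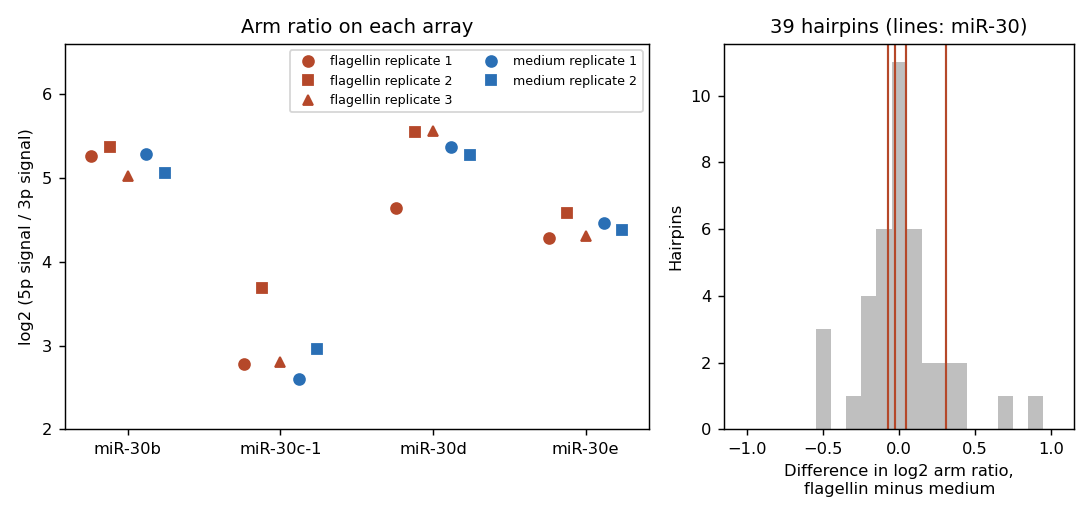
Left, log2 ratio of 5p to 3p signal on each array for the 4 miR-30 hairpins with both arms detected. Right, histogram of the difference in log2 arm ratio between flagellin and medium over 39 hairpins, with the 4 miR-30 hairpins as red lines at −0.071, −0.025, 0.045 and 0.31.

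Members encoded as neighbours were set against each other on the same array, by the log2 ratio of their 5p signals. For miR-30b to miR-30d it was 1.64, 1.65 and 1.45 with flagellin against 1.8 and 1.64 in medium. The mean was 1.58 ± 0.11 (SD, n = 3) against 1.72 ± 0.11 (SD, n = 2), a difference of −0.14. For miR-30a to miR-30c it was −1.31, −1.24 and −1.51 against −1.5 and −1.42, a difference of 0.10. For miR-30e to miR-30c it was 0.76, 0.96 and 0.59 against 0.71 and 0.76, a difference of 0.033. In all 3 pairs the groups overlapped, and two-sided exact permutation tests over the 10 splits of the arrays gave p = 0.5, 0.5 and 0.8 (0.75, 0.75 and 0.8 after adjustment over the 3 pairs), where 0.1 is the smallest p the design allows.

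Guide strands of other broadly expressed families were counted beside the miR-30 family. The 9 miRNAs of the let-7 and miR-98 family had a median log2 difference of −0.0064 (range −0.051 to 0.044), the 2 of miR-26 a median of 0.083 and the 3 of miR-29 a median of 0.094. The 5 of the miR-30 5p arm had a median of 0.093 (range 0.029 to 0.17). None of these passed an adjusted p of 0.05 in limma. miRNAs known to be induced downstream of Toll-like receptors had larger differences, 0.35 for miR-155-5p, 0.35 for miR-132-3p and 0.28 for miR-146a-5p, each with a limma adjusted p = 0.65.

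The mean profile of the 5 members of the 5p arm, centred on its mean over the arrays, was 0.077, 0.091 and −0.045 with flagellin against −0.030 and −0.094 in medium. Among the 268 miRNAs outside the family that were detected on every array, the 3 with the smallest root mean square difference to this profile over 5 arrays were miR-466b-3p (0.0228), miR-26a-5p (0.0372) and miR-21-5p (0.0416), where the median of the 268 was 0.151. The 5 members themselves had 0.0511 to 0.0786. A mean over 5 members varies less than a single miRNA, and with 5 arrays a close profile is a description only.

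Defining miRNAs of haematopoietic cells were high on every array, with a signal of 2499 to 3464 for miR-223-3p and 1040 to 2272 for miR-142-3p. Of 15 markers of erythroid, endothelial, stromal, lymphoid, liver, muscle and brain cells on the array, 4 were detected on any array. Flagellin array 2 was the highest for all 4, with 17.0 for the erythroid miR-451 (5.29 on flagellin array 1, not detected on the others), 29.1 for the endothelial miR-126-3p (5.04 to 12.6 on the others), and 41.3 for miR-199a-3p and 11.8 for miR-199a-5p, both stromal. The summed stromal signal was 53.1 on that array and 0 to 5.59 on the others. miR-144-3p (erythroid), miR-126-5p (endothelial), miR-214-3p, miR-143-3p and miR-145-5p (stromal) and miR-150-5p (lymphoid) were not detected on any. Whether such cells had a part in the values of flagellin array 2 was not tested. After scaling, that array was the highest for miR-30a-5p and miR-30e-5p and the lowest for miR-30b-3p, miR-30c-1-3p and miR-30d-3p. Without that array the difference was 0.11 for miR-30a-5p, 0.0031 for miR-30e-5p and 0.19 for miR-30d-5p, and on the 3p arm 0.049 for miR-30b-3p, 0.051 for miR-30c-1-3p and 0.41 for miR-30d-3p.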

How the data were processed

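Total RNA of the 5 BMDC samples was labelled with Cy3 and hybridised to Agilent mouse miRNA arrays (release 18). The authors extracted intensities with Feature Extraction (10.7 in their methods, 10.7.3.1 per the file headers), which subtracts background, sums the probes of each miRNA that exceed 3 times their error and gives a detection call. The deposited intensity files were used from there. The authors also deposited log2 values made in GeneSpring. Each column of these equalled log2 total gene signal minus 1 constant, within 1.62e-05, and served as an alternative.

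Each total gene signal was scaled by the 75th percentile of its array, taken over 277 mouse miRNAs with detection on every array. Scaled values were set to at least 0.0121 and log2 was taken. The 307 miRNAs detected on at least 2 arrays were tested with limma 3.58.1 (R 4.3.3; moderated linear model, Benjamini-Hochberg adjustment, no covariates). Arm ratios were tested likewise over 39 hairpins. Other steps used Python 3.11.15. The code was checked on simulated data. The alternatives included the methods' t-test.

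No spot was saturated. The number of arrays limits the precision, and the lowest detected signal was 2.31 to 3.21. The family, the comparison families, the marker miRNAs and the alternatives were chosen with earlier results of these data known. All 11 members are named, and of other miRNAs the 3 of Toll-like receptor signalling, the 3 nearest to the family's profile and the markers. Whether replicate numbers pair the samples is not stated. The correlation of deviations was −0.043 for replicate 1 and −0.076 for replicate 2 over 277 miRNAs, which with so few arrays cannot settle it.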

Additional observations from a re-analysis of the deposited data

How the results depend on the processing

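The count of members with an adjusted p under 0.05 was 0, and that of arm ratios 0, in all 22 alternative fits, and 24 alternatives gave values. miR-30a-5p, miR-30d-5p and miR-30e-5p stayed above 0 in all of them, though several change only the filter or the test and leave a difference as it was. The family median (0.093) was 0.27 with the percentile over all mouse miRNAs, 0.0095 with processed probe signals, 0.16 with the replicate block and −0.0025 within array row 2 (1 array a group). Leaving out each array in turn gave 0.055 to 0.16, the latter without flagellin array 3. The block changed no call, and whether it is a true pairing is not known.

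These differences turned sign, none of them past the test. miR-30b-3p was 0.16 with the percentile over all mouse miRNAs, 0.065 with quantile normalization and 0.0072 with normexp and quantile at probe level. miR-30d-3p was −0.0078 without the detection rule, −0.26 with processed probe signals and −0.00083 with the same probes on every array, an alternative chosen after seeing the data. miR-30e-3p was −0.037 with processed probe signals. The arm ratio of miR-30b was −0.051 with quantile normalization. That of miR-30d was 0.015 with the percentile over all mouse miRNAs, 0.18 without the detection rule, 0.39 with processed probe signals, 0.12 with normexp and quantile, 0.012 with the trend in probe length removed and 0.17 with the same probes. That of miR-30e was 0.038 without the detection rule, 0.072 with processed probe signals, 0.055 with normexp and quantile, 0.017 with the replicate block and 0.0084 with array row as a block. The detection rule and the choice of probes set the number of probes summed. The cause of these changes of sign was not tested.

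With 1 array left out, the differences ran from 0.11 to 0.24 for miR-30a-5p, from 0.0031 to 0.18 for miR-30e-5p, from 0.0046 to 0.12 for miR-30c-5p, from −0.035 to 0.093 for miR-30b-5p, from −0.063 to 0.049 for miR-30b-3p, from −0.49 to 0.051 for miR-30c-1-3p and from −0.076 to 0.41 for miR-30d-3p. The arm ratios ran from −0.065 to 0.16 for miR-30b, from −0.23 to 0.23 for miR-30d and from −0.12 to 0.029 for miR-30e. Within array row 1 and row 2 the difference of miR-30c-5p was 0.12 and −0.0025, that of miR-30c-1-3p 0.29 and −1.09 and the miR-30c-1 arm ratio −0.17 and 1.09. The sign also differed between the rows for miR-30b-5p (0.084 and −0.017), miR-30b-3p (0.0029 and −0.10) and miR-30d-3p (0.36 and −0.044). It did so for the arm ratios of miR-30d (−0.17 and 0.18) and miR-30e (−0.078 and 0.12) as well. Signals within a few errors of the detection limit restrict what can be said of the 3p arm.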
